A study of Mus musculus with 21 samples.

Results

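Sertoli cells are the somatic nurse cells of the seminiferous tubule, and a small set of transcription factors establishes and keeps their identity. Levels of these factors were described in RNA-seq libraries of enriched germ cells. The members were picked by gene symbol: the SoxE factors Sox9 and Sox8, the zinc finger factor Wt1, the GATA factors Gata1 and Gata4, and the homeobox genes Rhox5 and Rhox8. Of the 7 genes named, 6 had a row among the 37620 genes of the expression table, and Rhox5 was not analysed here.

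The libraries came from C57BL/6J (B6) males at 12 dpp (days post-partum), an age when the first wave of meiosis is under way. All carry the same genotype and age and received no treatment. The labels call the cells spermatocytes, and their protocol describes germ cells enriched by digesting testes with collagenase and trypsin, with no sort on a marker. There were 12 libraries, 3 for each of the sample numbers 186wt, 343wt, 444wt and 456wt. The labels do not say whether the 3 libraries of a number share 1 RNA or how many animals a number holds. The study's methods describe 4 replicates, as many as there are numbers, so the 3 libraries of a number may be repeats of 1 sample. The p-values then measure the spread between libraries, which may be technical, and not between animals. Levels are in FPKM, a fragment number scaled to the length of the transcript and the size of the library, and are given as the mean ± SD over the 4 sample numbers, each number being the mean of its 3 libraries. Because FPKM is corrected for transcript length, levels of different genes can be set side by side.

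In the developing gonad, SRY switches on Sox9 together with NR5A1, and SOX9 then activates genes such as Amh that make the supporting cell a Sertoli cell. SOX8 shares this work, WT1 and GATA4 act both before and after the switch, and GATA1 and the Rhox factors come on later in postnatal Sertoli cells, where hormones and contact with germ cells bear on them. All of them are known above all from Sertoli and other somatic cells, so in an enriched germ cell preparation their levels bear on its somatic part.

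Somatic transcripts were abundant. Sertoli marker transcripts summed to between 2994 and 5379 FPKM per sample number over 12 genes, and markers of meiotic cells to between 291 and 479 FPKM over 10 genes. The Sertoli gene Clu alone gave between 1251 and 2380 FPKM of the former. The median level of a gene was 169.5 FPKM in the Sertoli list and 31.9 FPKM in the meiotic list. Markers of spermatogonia lay between 624 and 890 FPKM over 8 genes. Smooth-muscle genes of peritubular myoid cells summed to between 253 and 1112 FPKM over 5 genes, and steroid-synthesis and hormone genes of Leydig cells to between 16.4 and 120 FPKM over 7 genes. Transcripts of several somatic cell types thus stood beside those of the labelled spermatocytes. The depth was estimated from the steps between low FPKM values at 13.1 to 18.15 M (mega) fragments per library, which puts the longest transcript of the least covered member, Gata1, at about 621 fragments in its lowest library. A fragment length of 280 bp, as the study's methods give it, matched the steps less well and gave 18.7 to 26.45 M fragments.

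All 6 measured members were expressed in every library. Wt1, which encodes a zinc finger protein needed for the gonad to form and for Sertoli cells to stay Sertoli cells, was the most abundant at 106 ± 22.5 FPKM (SD, n = 4). Rhox8, a homeobox gene of the X chromosome, followed at 82.0 ± 28.3 FPKM. The GATA factor Gata4 stood at 57.6 ± 13.0 FPKM and Sox9 at 44.4 ± 11.7 FPKM. Gata1 at 34.9 ± 10.4 FPKM and Sox8 at 21.7 ± 6.03 FPKM closed the order. Between 86.5% and 98.3% of the 37620 genes had a lower mean than the 6 members, and 10423 of the 37620 were at 0 in all 12 libraries. Neighbours in this order kept it in 12 of 12 libraries, with 1 exception: Sox9 exceeded Gata1 in 11 of 12 libraries and in 3 of 4 sample numbers, with Sox9 at 30.3 and Gata1 at 30.7 FPKM in 456wt. Sox9 and Gata1 therefore did not separate in that number.

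The 6 genes lie on 5 chromosomes, with positions here on NCBI build 37 from GENCODE M1. Wt1 spans chromosome 2 from 104966686 to 105013773 on the plus strand, and Sox9 spans chromosome 11 from 112643538 to 112649074 on the plus strand. Gata4 covers 63817759 to 63890529 of chromosome 14 and Sox8 25702837 to 25707631 of chromosome 17, both on the minus strand. Gata1 and Rhox8 share the X chromosome, at 7536386 to 7555197 and 35227957 to 35232121, both on the minus strand. Their Ensembl identifiers in the table are ENSMUSG00000016458 for Wt1, ENSMUSG00000000567 for Sox9, ENSMUSG00000021944 for Gata4, ENSMUSG00000024176 for Sox8, ENSMUSG00000031162 for Gata1 and ENSMUSG00000064137 for Rhox8. All 6 are annotated as protein-coding, and none overlaps another annotated gene on either strand.

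The promoter sequences of Sox8 and Gata1 are shown because the members moved together between sample numbers, as described further on, and these are the 2 of 6 measured members matched in the RefSeq promoter table (GRCm38.p6). For both, the 250 bases before each start were found once in NCBI build 37. The Sox8 stretch is chr17:25707632-25707881 on the minus strand and ends at the annotated start of the gene. The Gata1 stretch is chrX:7545037-7545286 on the minus strand and ends at the annotated start of its longest transcript, 10161 bp from the outermost annotated start. Which of the 3 annotated Gata1 starts these cells use was not tested, so the stretch may not be the promoter used in them. Both are printed 5′ to 3′, and capitals mark the GC box letters GGGCGG.
Sox8: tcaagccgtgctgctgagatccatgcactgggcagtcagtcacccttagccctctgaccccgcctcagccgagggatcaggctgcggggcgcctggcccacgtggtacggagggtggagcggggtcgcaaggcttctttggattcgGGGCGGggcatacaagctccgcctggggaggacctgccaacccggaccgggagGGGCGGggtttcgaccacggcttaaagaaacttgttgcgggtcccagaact
Gata1: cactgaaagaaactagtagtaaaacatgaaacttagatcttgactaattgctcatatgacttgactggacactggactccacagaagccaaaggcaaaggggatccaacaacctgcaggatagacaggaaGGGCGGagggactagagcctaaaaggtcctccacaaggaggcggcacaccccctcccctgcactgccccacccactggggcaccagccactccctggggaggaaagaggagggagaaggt
The search covered both strands for 3 motifs. The GC box was found 2 times before Sox8 and 1 time before Gata1, and 32.7% of the 32851 promoters in the table held it. The GATA letters AGATAA or AGATAG, and TGATAA or TGATAG, were in neither window and in 26.5% of all promoters, and the SOX letters ACAAT and ACAAAG were in neither window and in 38.8% of all. GC made up 65.6% of the Sox8 stretch and 54.0% of the Gata1 stretch, against a median of 52.4%. A match of letters is a description, and the absence of letters from 250 bases says nothing of binding elsewhere.

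**Figure D1:**
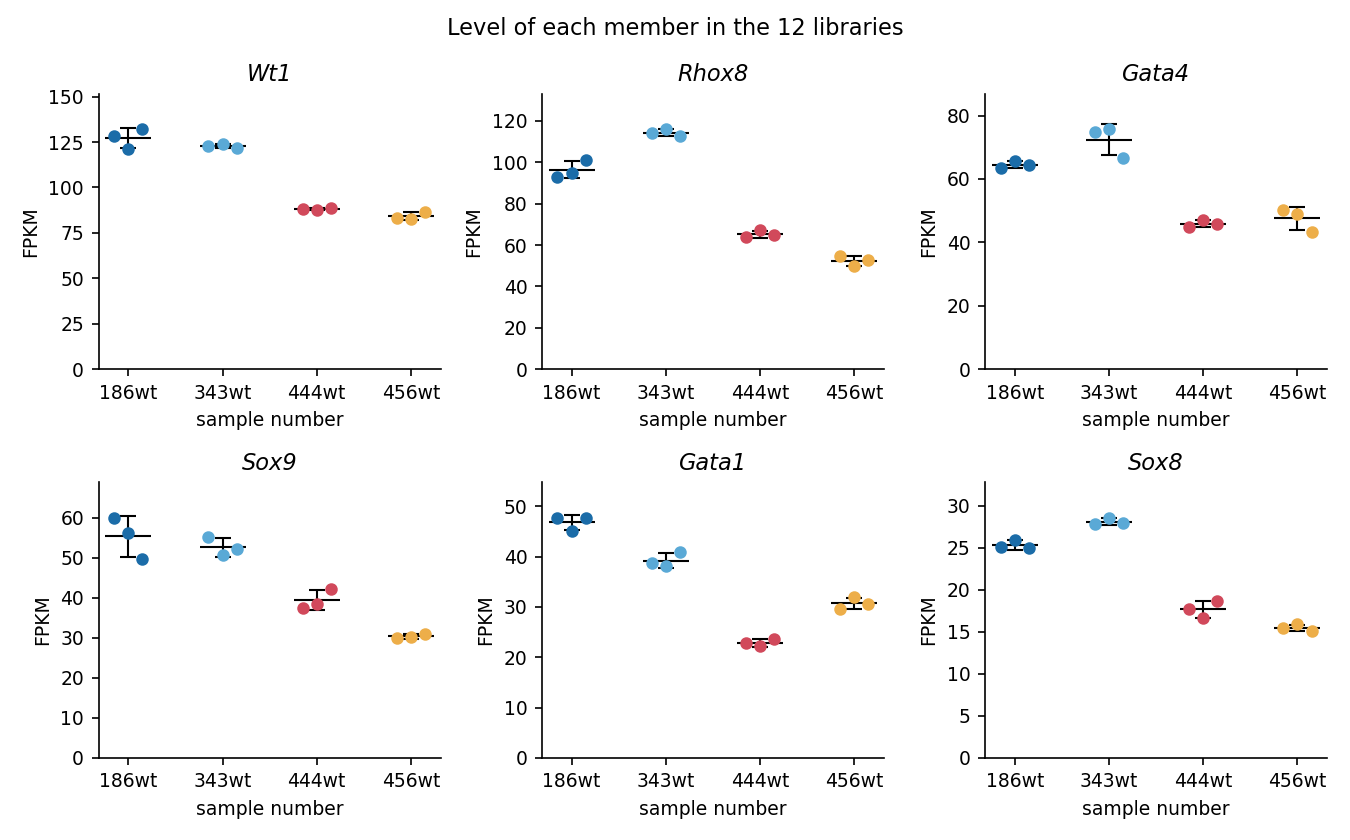
Level of each of the 6 members in FPKM (vertical axes from 0) in the 12 libraries, by sample number (horizontal axes). Points are libraries, and black bars and whiskers are the mean and SD of the 3 libraries of a number. Each member is higher in 186wt and 343wt than in 444wt and 456wt.

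The study compares no conditions in these libraries, so the members were compared between the 4 sample numbers. All 6 members differed between the numbers (limma F-test on log2(FPKM + 0.1) over the 20795 genes that averaged 0.1 FPKM or more, adjusted p under 0.05), as did 58.2% of all genes tested, so a call alone does not set the members apart. Their direction was shared. Every member was lower in 444wt and in 456wt than in 186wt and in 343wt, which makes 24 of 24 comparisons, each past the threshold. In bulk RNA, fewer cells of a type and less RNA per cell cannot be told apart.

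Wt1 stood at 128, 121 and 132 FPKM in the 3 libraries of 186wt and at 123, 124 and 122 FPKM in 343wt. It fell to 88.3, 87.7 and 88.6 FPKM in 444wt and to 83.1, 82.9 and 86.7 FPKM in 456wt. The highest library of 444wt and 456wt was thus well below the lowest of the other numbers, and the change from 186wt to 456wt was -0.59 ± 0.03 on the log2(FPKM + 0.1) scale (SE, adjusted p = 1.89e-08). The 186wt and 343wt libraries of Wt1 did not pass the test against each other (-0.05 ± 0.03, adjusted p = 0.244), nor did 444wt against 456wt (-0.07 ± 0.03, adjusted p = 0.106). The range of Wt1 was 0.59 between its highest and lowest number, against a median range of 0.55 over all genes tested.

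Sox9, the factor on which the Sertoli cell programme turns, was at 59.9, 56.2 and 49.7 FPKM in 186wt and 55.1, 50.6 and 52.1 FPKM in 343wt. It was at 37.4, 38.5 and 42.2 FPKM in 444wt and 29.9, 30.2 and 31.0 FPKM in 456wt. No library of 456wt reached one of 444wt, and the difference between those numbers, -0.37 ± 0.06, passed the test (adjusted p = 0.00120). Its partner Sox8, a SoxE factor that can stand in for part of SOX9 function, was at 25.1, 26.0 and 24.9 FPKM in 186wt and 27.8, 28.6 and 28.0 FPKM in 343wt. Sox8 then measured 17.8, 16.6 and 18.7 FPKM in 444wt and 15.4, 15.9 and 15.1 FPKM in 456wt. The ratio of Sox9 to Sox8 was 2.06 ± 0.171 (SD, n = 4) and stayed between 1.87 and 2.23 in the 4 numbers. The SoxE pair did not move in step throughout. From 186wt to 343wt Sox9 changed by -0.07 and Sox8 by 0.15, and from 444wt to 456wt by -0.37 and -0.19.

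The GATA factors did not keep to 1 ratio. Gata4, which acts in the early gonad and in adult somatic cells of the testis, was at 63.6, 65.6 and 64.3 FPKM in 186wt and 74.7, 75.6 and 66.7 FPKM in 343wt. In 444wt it was at 44.7, 46.9 and 45.9 FPKM and in 456wt at 50.2, 49.1 and 43.4 FPKM, and these libraries overlapped (0.05 ± 0.06, adjusted p = 0.572). Gata1, known in Sertoli cells from the first wave of spermatogenesis and in blood precursors, was at 47.7, 45.1 and 47.6 FPKM in 186wt and 38.7, 38.1 and 40.8 FPKM in 343wt. In 444wt, Gata1 was at 22.8, 22.1 and 23.6 FPKM, the lowest of the 4 numbers, and in 456wt at 29.6, 31.9 and 30.5 FPKM. Gata1 was the 1 member whose rise from 444wt to 456wt passed the test (0.42 ± 0.04, adjusted p = 1.38e-05), and its range of 1.03 on the log2 scale was among the widest. The ratio of Gata4 to Gata1 went from 1.38 in 186wt to 2.01 in 444wt.

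Rhox8, a homeobox gene under hormonal control in Sertoli cells, ranged by 1.13 on the log2 scale, with Gata1 at 1.03. Rhox8 had the wider range of this pair over all 4 numbers, but which of them was wider depended on the numbers kept. Without 343wt Rhox8 spanned 0.88 and without 456wt 0.81, while Gata1 spanned 1.03 in both cases. Without 186wt Gata1 spanned 0.777 and without 444wt 0.608, while Rhox8 spanned 1.13 in both cases. The libraries of Rhox8 read 93.0, 95.0 and 101 FPKM in 186wt and 114, 116 and 113 FPKM in 343wt. They read 63.8, 67.0 and 64.8 FPKM in 444wt and 54.5, 49.7 and 52.8 FPKM in 456wt. All 4 numbers were apart in Rhox8: 343wt exceeded 186wt by 0.25 ± 0.04 (adjusted p = 7.64e-04) and 456wt was below 444wt by -0.32 ± 0.04 (adjusted p = 7.81e-05). The ratio of Rhox8 to Wt1 was 0.931 in 343wt and 0.622 in 456wt.

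Taken by pair of numbers, the counts ran as follows. Between 343wt and 186wt, 3 of 6 members passed, with Rhox8 and Sox8 higher and Gata1 lower in 343wt, where 20.4% of all genes passed in either direction. The call of Sox8 there was not firm: it was lost when library 1 or 3 of 186wt, or any library of 343wt, was left out (adjusted p = 0.0552 to 0.0859), and with a replicate block (adjusted p = 0.0527), while Gata4 passed with the block (adjusted p = 0.0379). In 444wt against 186wt all 6 were lower, with a median difference of -0.52, where 16.3% of all genes were lower and the median of all genes was 0.10. In 456wt against 186wt all 6 were lower by a median of -0.66, where 15.5% of all genes were lower. In 444wt against 343wt all 6 were lower by a median of -0.66, where 17.5% of all genes were lower, and in 456wt against 343wt by -0.70, where 14.2% were lower. Between 456wt and 444wt, 4 of 6 passed, with Gata1 higher and Sox9, Sox8 and Rhox8 lower in 456wt, where 28.2% of all genes passed in either direction. These comparisons share libraries, so they are not independent of each other. Within a number the members varied little, with a coefficient of variation of 2.78% to 7.0% between libraries against 21.3% to 34.5% between numbers.

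The Sertoli markers moved with the members between most numbers. All 12 of them passed the F-test, where 58.2% of all genes did. All 12 were lower in 444wt than in 343wt with a median of -0.81, where 17.5% of all genes were lower. Between 444wt and 456wt the lists parted: 7 Sertoli markers were higher and 4 lower in 456wt, with a median of 0.10, while 1 member was higher and 3 lower, with a median of -0.13. On the scale of log2(FPKM + 0.1) centred on each gene's own mean, the members averaged 0.31, 0.34, -0.29 and -0.37 in 186wt, 343wt, 444wt and 456wt. The Sertoli markers averaged 0.38, 0.40, -0.49 and -0.30 in the same numbers. Clu, the secreted chaperone clusterin and the most abundant of them, was at 2289, 2380, 1251 and 1456 FPKM. The markers of spermatogonia went the other way at -0.27, -0.18, 0.31 and 0.14, and meiotic markers took another course at 0.10, -0.38, 0.38 and -0.10. The part of these lists in the members' differences was not tested beyond the values relative to the Sertoli list that follow.

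**Figure D2:**
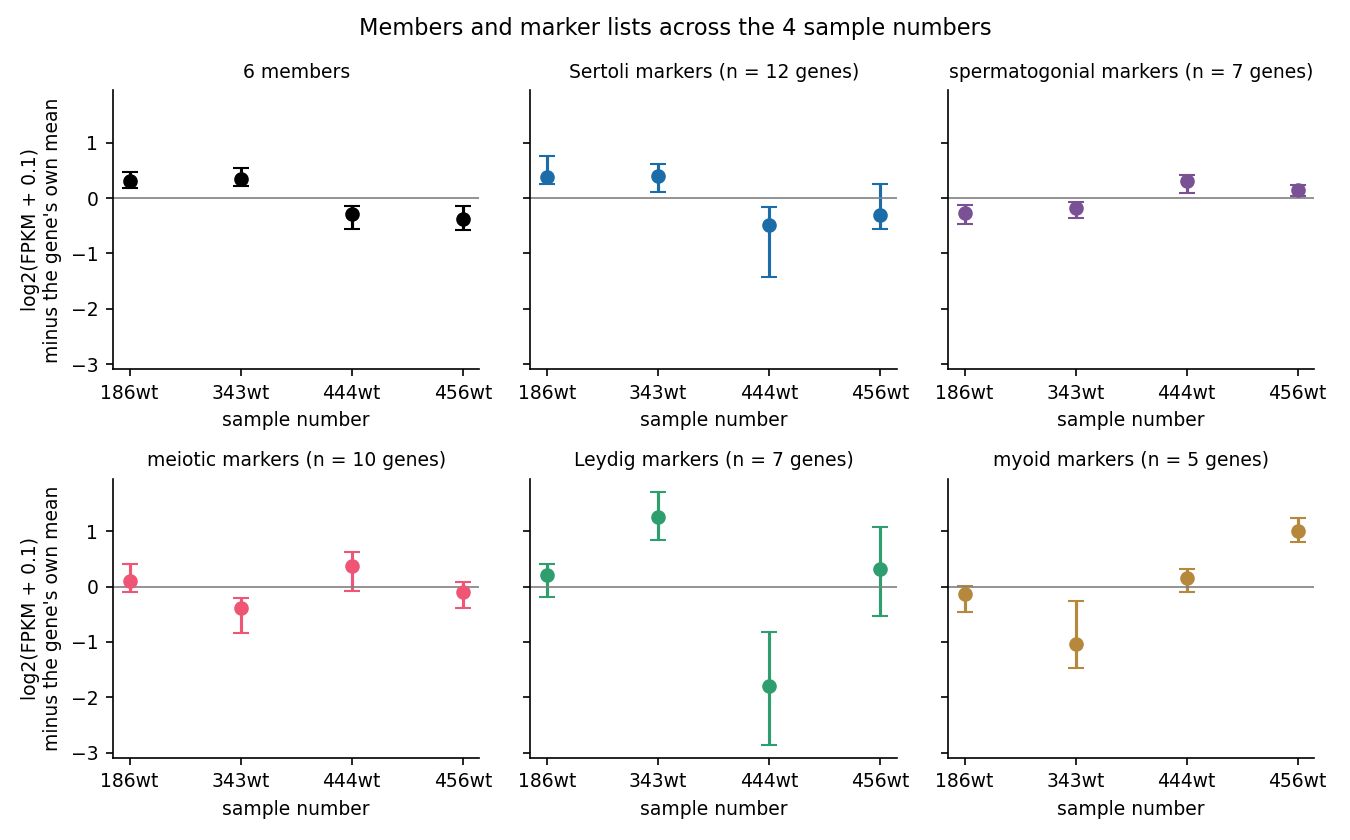
Average of log2(FPKM + 0.1), centred on each gene's own mean, for the 6 members and 5 marker lists (vertical axis) in the 4 sample numbers (horizontal axis). Points are averages over the genes of a list that average 1 FPKM or more, and whiskers run from the lowest to the highest gene. Members and Sertoli markers lie above 0 in 186wt and 343wt and below it, on average, in 444wt and 456wt.

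When the mean log2 level of the 12 Sertoli markers was subtracted in each library, the shared fall of the members was gone. Of these markers, 6 are also among the genes downstream of the members that are described further on. The step thus also subtracts changes that the members shared with those genes. The median difference of the members in 444wt against 186wt turned from -0.52 to 0.35, and in 456wt against 186wt from -0.66 to 0.03. All 6 members still passed the F-test between numbers, where 84% of all genes passed, with ranges of 0.35 to 0.56 on the log2 scale. Relative to the Sertoli list, Sox9 was 0.39 ± 0.07 higher in 444wt than in 186wt (adjusted p = 3.40e-04) and Wt1 0.35 ± 0.03 higher (adjusted p = 1.82e-07). Rhox8 was 0.31 ± 0.03 higher in that comparison, and its difference in 456wt against 444wt was -0.51 ± 0.03 (adjusted p = 6.61e-07). Gata1 stood out by its sign, with -0.16 ± 0.05 in 444wt against 186wt (adjusted p = 0.00769) where the other 5 were higher. Without Tsx, a Sertoli gene that moved by -2.05 between 343wt and 444wt, the median in 444wt against 186wt was 0.23, and 3 rather than 6 members passed in 444wt against 343wt.

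**Figure D3:**
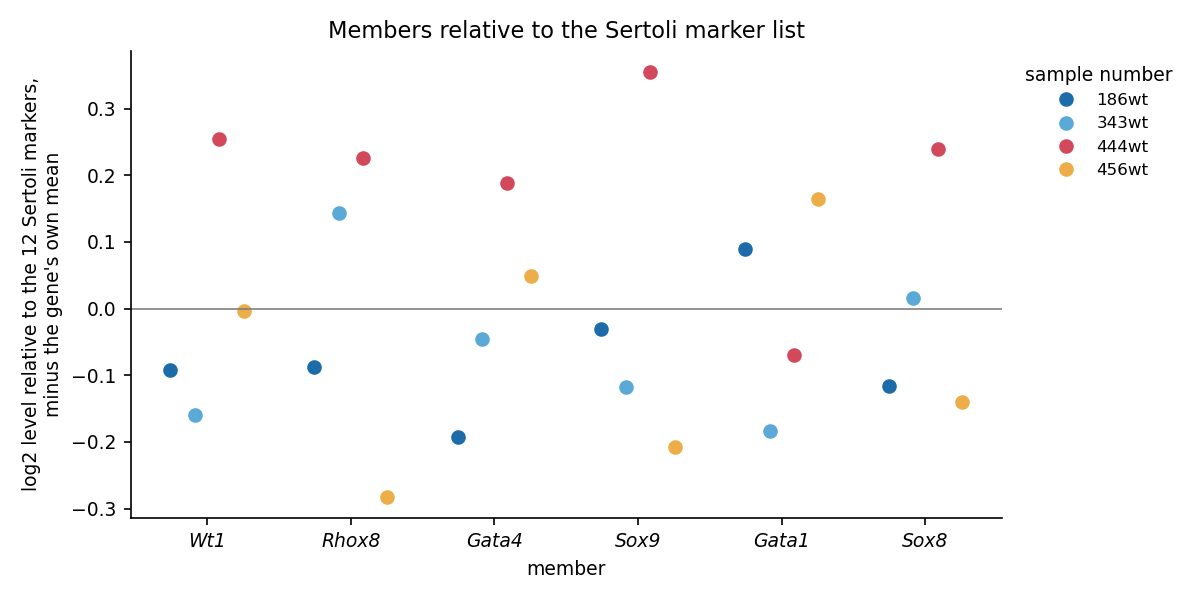
Level of each member (horizontal axis) relative to the mean of the 12 Sertoli markers, on the log2(FPKM + 0.1) scale and centred on the gene's own mean (vertical axis). Each point is the mean of 3 libraries of a sample number. In 5 of the 6 members 444wt is the highest number, and in Gata1 456wt is.

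Gata1 and Gata4 are also expressed outside Sertoli cells, so the markers of those cells are given beside them. Erythroid transcripts, mostly globins, summed to 30.5, 78.1, 95.3 and 174 FPKM in 186wt, 343wt, 444wt and 456wt. Gata1 was at 46.8, 39.2, 22.8 and 30.7 FPKM in these numbers, highest in 186wt, where the erythroid sum was lowest. From 444wt to 456wt both rose. The erythroid factor Klf1 averaged 0.335 FPKM. All 4 mast cell markers averaged under 0.25 FPKM. Leydig markers, whose cells express Gata4, summed to 59.4, 120, 16.4 and 67.1 FPKM in the same order of numbers. Gata4 was at 64.49, 72.35, 45.84 and 47.55 FPKM. The Leydig sum and the mean of Gata4 were thus both highest in 343wt and both lowest in 444wt. All 7 Leydig markers were higher in 456wt than in 444wt, between which Gata4 did not pass the test. The part of blood and Leydig cells in the levels of Gata1 and Gata4 was not tested.

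Among the 18 Sox symbols of the table (19 rows, as Sox4 has 2), Sox9 was the most abundant. Sox4 followed at 37.5 ± 2.69 FPKM, Sox12 at 31.0 ± 2.75 FPKM, Sox3 at 28.2 ± 5.85 FPKM and Sox13 at 24.3 ± 1.05 FPKM, ahead of Sox8. The remaining SoxE gene, Sox10, known for neural crest and glia, was at 3.49 ± 0.816 FPKM. Of the 19 rows, 13 passed the F-test, as did 58.2% of all genes. In 444wt against 343wt, 4 were higher and 4 lower, where 30.4% of all genes were higher and 17.5% lower, so neither count sets the family apart. Sox3, a gene of spermatogonia, was at 23.0, 23.6, 34.7 and 31.7 FPKM and so went against Sox9 and Sox8, with 444wt above 343wt by 0.56 (adjusted p = 1.00e-06). Sox10 was likewise higher in 444wt, by 0.61 (adjusted p = 6.53e-04). Sox6 at 4.66, 4.12, 2.85 and 2.87 FPKM fell in the same numbers as the members, and Sox4 and Sox12 differed little between 343wt and 444wt (-0.09, adjusted p = 0.0663, and -0.02, adjusted p = 0.717).

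**Figure D4:**
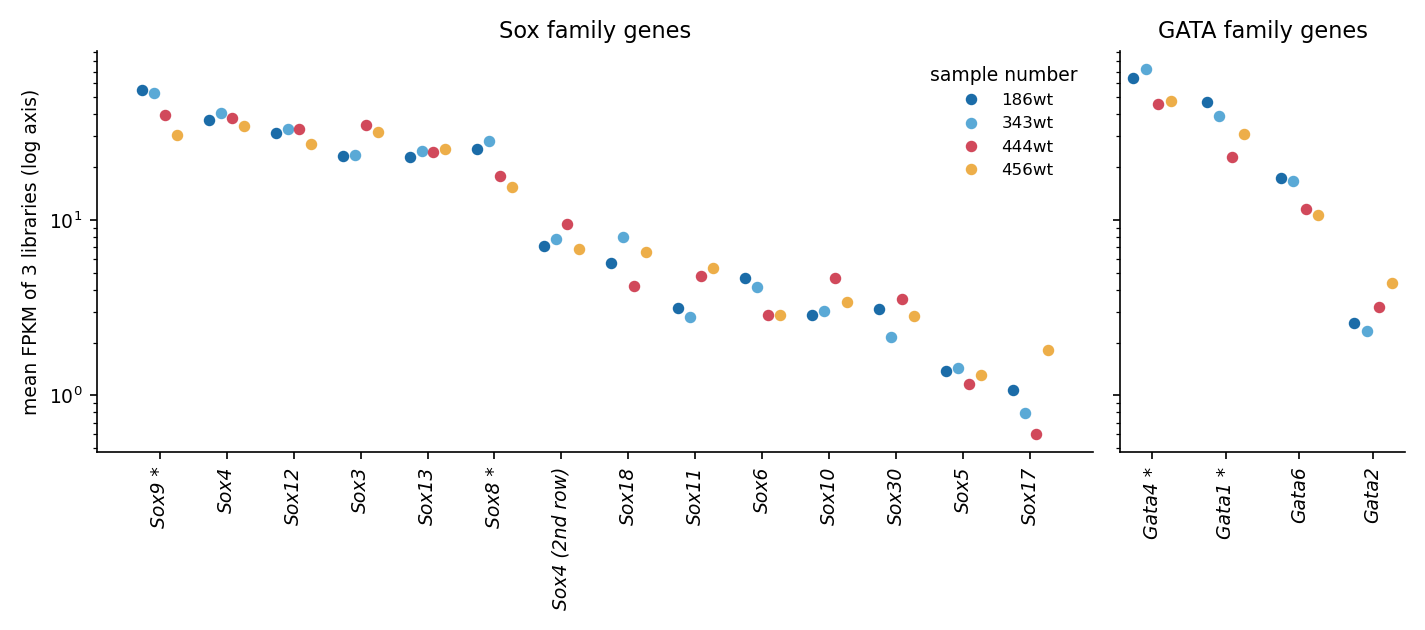
Mean FPKM of 3 libraries (log axis) for each Sox and GATA gene averaging 1 FPKM or more, coloured by sample number and ordered by mean level. Asterisks mark the members. Sox9, Sox8, Gata4, Gata1 and Gata6 are lower in 444wt and 456wt than in the other numbers, and Sox3 is higher.

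Of the GATA family, Gata4 and Gata1 were followed by Gata6 at 14.01 ± 3.42 FPKM, a somatic factor close to GATA4 in sequence. Gata6 was at 17.2, 16.7, 11.5 and 10.7 FPKM in 186wt, 343wt, 444wt and 456wt and fell with the members. Gata2 at 3.12 ± 0.920 FPKM, known in blood and endothelial cells, ran higher in 456wt, where it was at 4.39 FPKM against 2.33 to 3.19 FPKM in the other numbers. Gata3 averaged 0.335 FPKM and Gata5 0.0683 FPKM. The cofactor FOG1, encoded by Zfpm1, was at 26.6 ± 3.99 FPKM and was lower in 444wt than in 343wt, with a difference of -0.38 (adjusted p = 3.28e-04). FOG2, encoded by Zfpm2 and the partner of GATA4 in the early gonad, was at 2.18 ± 0.306 FPKM and was lower in the same comparison, with a difference of -0.42 (adjusted p = 0.0198), though its F-test over the 4 numbers did not pass (adjusted p = 0.0647).

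Rhox8 stood out among the Rhox genes that had a row. Rhox5 had none, so its level is unknown and the shares given here leave it out. The 32 Rhox rows span 34753799 to 35483143 of the X chromosome, with Rhox8 at place 27 in order, and Rhox8 held 55.2% of their summed FPKM. The other 31 rows had a median of 0.288 FPKM, and 20 of them were under 1 FPKM. Rhox13, known in germ cells, came next at 29.3 ± 4.47 FPKM, then Rhox2a at 9.0 ± 1.27 FPKM, Rhox10 at 5.85 ± 1.59 FPKM and Rhox1 at 4.40 ± 1.16 FPKM. In 444wt against 343wt, Rhox13 was higher by 0.44 (adjusted p = 4.14e-04), Rhox10 by 0.60 (adjusted p = 2.04e-04) and Rhox1 by 0.59 (adjusted p = 0.00282), while Rhox8 was lower by -0.81 ± 0.04 (adjusted p = 1.26e-08). Of the 27 Rhox rows tested, 9 were higher and 1, Rhox8, lower in that comparison, where 30.4% of all genes were higher and 17.5% lower, so the number that were higher is close to that of genes at large. Rhox2, Rhox3 and Rhox4 genes are near-identical copies among which reads can be split, so their single values are uncertain.

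**Figure D5:**
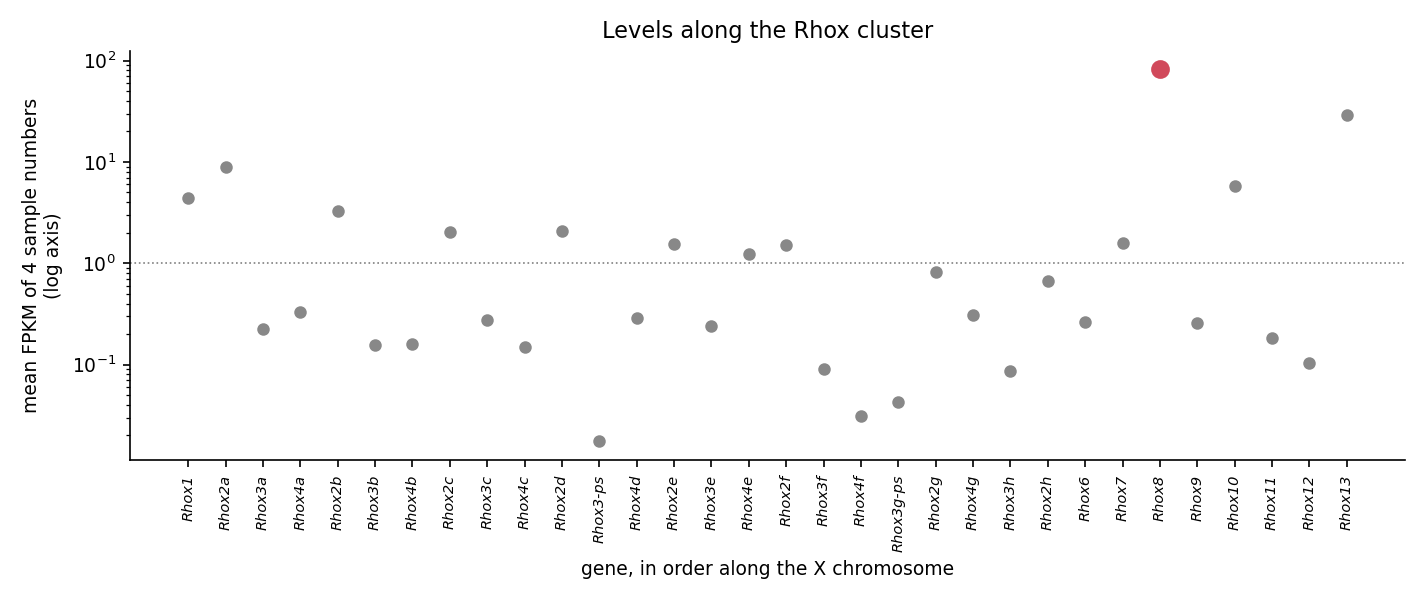
Mean FPKM over the 4 sample numbers (log axis) of the 32 Rhox genes with a row, in their order along the X chromosome. Rhox5 had no row and is not shown. Rhox8 is the large red point at 82.0 FPKM, Rhox13 is next at 29.3 FPKM, and the dotted line marks 1 FPKM.

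Other regulators of the gonad differed in direction. Nr5a1, the orphan receptor SF1 that acts with SOX9 on Amh, was at 60.7, 61.7, 41.9 and 42.5 FPKM, and Nr0b1, the receptor DAX1, at 53.4, 52.0, 33.1 and 33.9 FPKM. Both were lower in 444wt than in 343wt. Dmrt1, which acts in both Sertoli and germ cells, was at 124, 136, 164 and 151 FPKM, and Cbx2, a Polycomb protein, at 24.3, 26.1, 36.3 and 34.3 FPKM. Those genes and Lhx9 were higher in 444wt than in 343wt. Of the 11 regulators, 7 passed the F-test, where 58.2% of all genes did, so the count is near that of genes at large. Sry was listed at 0 in every library, and Foxl2, the ovarian counterpart of Sox9, averaged 0.110 FPKM.

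Of 12 genes known downstream of the members in Sertoli cells, 10 passed the F-test, where 58.2% of all genes did. In 444wt against 343wt, 9 were lower and 2, Cyp26b1 and Ptgds, higher, where 17.5% of all genes were lower and 30.4% higher. Of these 12 genes, 6 also belong to the Sertoli marker list. Amh, the hormone that makes the Müllerian duct regress and a direct target of SOX9, WT1, GATA4 and SF1, was at 81.4, 94.0, 59.1 and 46.0 FPKM in 186wt, 343wt, 444wt and 456wt. Its receptor Amhr2 was at 318, 271, 166 and 189 FPKM, the inhibin subunit Inha at 369, 401, 218 and 221 FPKM, and the FSH receptor Fshr at 11.6, 11.3, 6.33 and 7.76 FPKM. Cyp26b1, the enzyme that clears retinoic acid, went the other way at 81.6, 62.3, 105 and 135 FPKM. Peritubular myoid markers summed to 533, 253, 670 and 1112 FPKM in the same order of numbers. Which cells gave the Cyp26b1 transcripts was not tested. Ptgds, a prostaglandin synthase at 1.41 FPKM, was higher in 444wt than in 343wt by 0.63 (adjusted p = 0.0372) but did not pass the F-test over the 4 numbers (adjusted p = 0.0929), and Fgf9 at 0.366 FPKM passed neither.

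The genes whose course over the 4 numbers was most like the members' average were sought among 14348 genes averaging 1 FPKM or more, by the root mean square difference of their centred log2 values. Sh3tc2 was closest at 0.01, with levels of 18.4, 18.5, 12.0 and 11.5 FPKM. Dtx1, an E3 ligase of the Notch pathway, was at 65.6, 66.5, 42.4 and 41.3 FPKM, also 0.01 away. Got1, an aspartate aminotransferase, Ppp1r9a, the actin-binding neurabin, and Kazald1 came next at 0.02 each, against a median of 0.40 over all these genes. The members themselves lay 0.06 (Sox8) to 0.21 (Gata1) from their average. With 4 numbers behind each course, closeness is a description.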

How the data were processed

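RNA-seq of B6 germ cell preparations gave 12 libraries. As the study's methods describe, the authors used BowTie 0.12.9 for alignment against transcripts of NCBI build 37, dropped reads with 2 or more mismatches and computed the deposited FPKM with RSEM 1.2.8. The deposited FPKM are rounded, hold no counts, and no strand setting is given in the sources used here. RSEM splits reads among matching transcripts, so values of near-identical genes are uncertain.

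All 12 columns were matched to samples by name, and 0 columns were left out. Sample numbers were compared by limma 3.58.1 (lmFit, eBayes with trend; R 4.3.3) on log2(FPKM + 0.1) for genes averaging 0.1 FPKM or more, with Benjamini-Hochberg adjustment over all 20795 genes, and called at an adjusted p under 0.05. This scale understates changes of low genes. The test was checked on simulated data. Depth was estimated from the steps of FPKM in 2307 single-transcript genes of 500 to 1000 bp, with an offset of 70 bp fitted to those steps. The members, the gene lists and the rules for naming genes (the members, the genes of the fixed families and lists, and the 5 most alike genes) were chosen with earlier results of these data known. The replicate numbers do not pair the samples. ChIP-seq and Affinity-seq samples were not analysed here. Values of a few genes of the lists are not reported here.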

Additional observations from a re-analysis of the deposited data

Results flagged for a closer look

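In groups of 4 sample numbers, 4 of 79 values examined had 1 number set apart from the other 3 by Dixon's 95% criterion, where chance gives about 3.95. The ratio of Wt1 to Sox9 was 2.77 in 456wt and 2.25 to 2.34 in the others. Gata3 was at 0.193 FPKM in 343wt, against 0.360 to 0.393 FPKM. Rhox2c was at 2.79 FPKM in 444wt, against 1.76 to 1.86 FPKM, and Rhox3e at 0.740 FPKM in 444wt, against 0.0633 to 0.0933 FPKM. Rhox2c and Rhox3e belong to groups of near-identical copies, and of these genes Gata3 and Rhox2c did not pass the F-test. No explanation was weighed for these values.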

How the results depend on the processing

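Of the values recomputed under alternatives, 456 were classed as the same, 8 as reversed and 7 as moved. F-test calls were the same on the same side of the threshold, and levels within their SD between numbers. Median differences had to keep their sign and stay within the typical SD between libraries. Counts had to stay within 1.5 times, whatever their direction. A count could thus stay the same while members changed direction, as in 444wt against 186wt relative to the Sertoli markers. Relative to the 12 Sertoli markers, the median member difference was 0.35 (444wt against 186wt), 0.025 (456wt against 186wt), 0.23 (444wt against 343wt), 0.0021 (456wt against 343wt) and -0.32 (456wt against 444wt). Without Tsx in that list, an alternative chosen after seeing the data, these medians were 0.23, 0.021, 0.12, 0.013 and -0.20, and 3 members passed in 444wt against 343wt. The subtracted list fell with the members, and in 444wt its centred average was lower than theirs (-0.49 against -0.29). In 456wt it was not (-0.30 against -0.37), and the reversed medians there with all 12 markers were 0.025 and 0.0021. Median-ratio scaling gave medians of -0.61, -0.73, -0.78 and -0.80 in the first 4 of these comparisons, and moved the median of all genes in 444wt against 343wt from 0.14 to 0.03. Leaving out 1 library kept all 6 members past the F-test and gave 30 to 33 of 36 member calls between numbers against 31. The calls that changed were Sox8, Gata4 and Wt1 in 343wt against 186wt, where Gata4 passed without library 3 of 343wt (adjusted p = 0.0186) or of 456wt (0.0235) and Wt1 without library 2 of 186wt (0.0309), and Wt1 in 456wt against 444wt without that library (0.0356). With a replicate block, 6 members and 11774 genes passed the F-test, and between numbers it changed the calls of Sox8 and Gata4 in 343wt against 186wt and no other. Libraries of the same replicate number correlated between -0.06 and 0.13 in their deviations, and 5 of 12 matched their own number best. The depth limits genes near 0.1 FPKM.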

Other observations

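Other cell types than those set beside the members also differed between the preparations. Macrophage markers summed to 10.4, 24.9, 5.70 and 19.7 FPKM over 5 genes in 186wt, 343wt, 444wt and 456wt. All 5 passed the F-test, as did 58.2% of all genes. Endothelial markers summed to 18.6, 23.1, 15.8 and 34.8 FPKM over 5 genes, of which all 5 were higher in 456wt than in 444wt. Markers of round spermatids, which are not formed at this age, summed to between 2.38 and 4.30 FPKM over 6 genes. Most of this sum came from Spaca1 at 1.74 to 2.52 FPKM and Tnp1 at 0.413 to 1.78 FPKM. Prm2 was at 0 in every library.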
